A study of Mus musculus with 4 samples.

Results

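Pan-neuronal differentiation genes are genes switched on in most newly made neurons, whatever transmitter they will use. The 10 examined here were Dcx, Elavl2, Elavl3, Elavl4, Tubb3, Snap25, Map2, Stmn2, Gap43 and Ncam1, chosen by name among 21900 mouse protein-coding genes, and all 10 names matched the gene table. The question was where binding sites of the transcription factor Sp9 lay relative to them in the developing basal ganglia. Chromatin immunoprecipitation and sequencing (ChIP-seq) had been done with a rabbit antibody to Sp9 on basal ganglia dissected from wild-type CD1 mice, at embryonic days 13.5 (E13.5) and 16.5 (E16.5). Each stage had 1 ChIP library and 1 input library made without antibody, and how many embryos were pooled for a library is not known from the labels.

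The authors' E13.5 list held 5847 peaks and the E16.5 list 6022, each peak given as a distance in base pairs (bp) from the transcription start site (TSS) of the genes to which it was assigned, on the mm9 mouse build. The distances are the authors' own, and the lists hold no height, fold enrichment or read total, so the depth is unknown. A gene missing from a list may still have binding too weak to be called a peak. Each stage rests on a single library, without replicates, and differences between the stages were not tested. ChIP-seq gives no expression, so only peaks could be set beside the tissue label. The 6 forebrain GABAergic genes Dlx1, Dlx2, Dlx5, Dlx6, Gad1 and Gad2 all had a peak within 50 kb at both stages, beside 7.79% of protein-coding genes. Neighbouring Dlx genes shared some of these peaks. Of 8 genes of liver, muscle, vessel, blood and skin cells, 2 had one in the E13.5 list and 0 in the E16.5 list, beside 10.8% and 15.1%. Both lists were chosen with earlier results known, so they do not test the tissue.

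Newborn neurons leave the germinal zone, extend processes and build synapses, and each step draws on a different set of these proteins. Doublecortin (Dcx) binds microtubules in migrating neurons, Tubb3 is a neuronal beta-tubulin, Map2 binds microtubules in dendrites, and Stmn2 destabilises microtubules in growth cones. Elavl2, Elavl3 and Elavl4 (the Hu proteins) bind AU-rich RNA and regulate its splicing and stability. Gap43 is a growth cone membrane protein, Ncam1 an immunoglobulin-type adhesion molecule, and Snap25 a SNARE protein of vesicle fusion. Sp9 belongs to the SP/KLF zinc finger family, whose members bind GC-rich boxes, and is made in progenitors and young neurons of the ganglionic eminences.

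In the E13.5 list 8 of the 10 genes had an assigned peak at any distance, and in the E16.5 list 9 had one. Over all protein-coding genes the shares were 20.7% and 23.6%. The authors' gene domains could extend by 1000000 bp, so a gene far from its neighbours has more room for assigned peaks. The width of these intervals was not accounted for in this or later comparisons at any assigned distance. The E13.5 peaks numbered 20 and the E16.5 peaks 23. Elavl3 had none at either stage, and Elavl2 had peaks at E16.5 alone. Within 50 kb of the TSS, 4 genes had a peak at E13.5 (Dcx, Elavl4, Tubb3 and Snap25) and 5 at E16.5 (the same 4 and Elavl2), beside 10.8% and 15.1% of protein-coding genes. The background for such a peak in both lists was 7.79%. Of the single peaks, 7 of 20 and 7 of 23 lay within 50 kb, beside 30.3% and 42.2% of all gene-peak assignments in the E13.5 and E16.5 lists. Within 1 kb of the authors' TSS, here called a promoter peak, only Dcx and Elavl4 had one, at both stages. As background, 4.93% of genes had a promoter peak in the E13.5 list, 9.42% in the E16.5 list and 3.40% in both. The other 4 genes with peaks, Map2, Stmn2, Gap43 and Ncam1, had all of theirs beyond 50 kb of the authors' TSS. For Map2 that distance depends on which TSS is used, as described with its values. The genes were picked with earlier results of these data known, so these counts describe the 10 genes and test nothing.

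**Figure D1:**
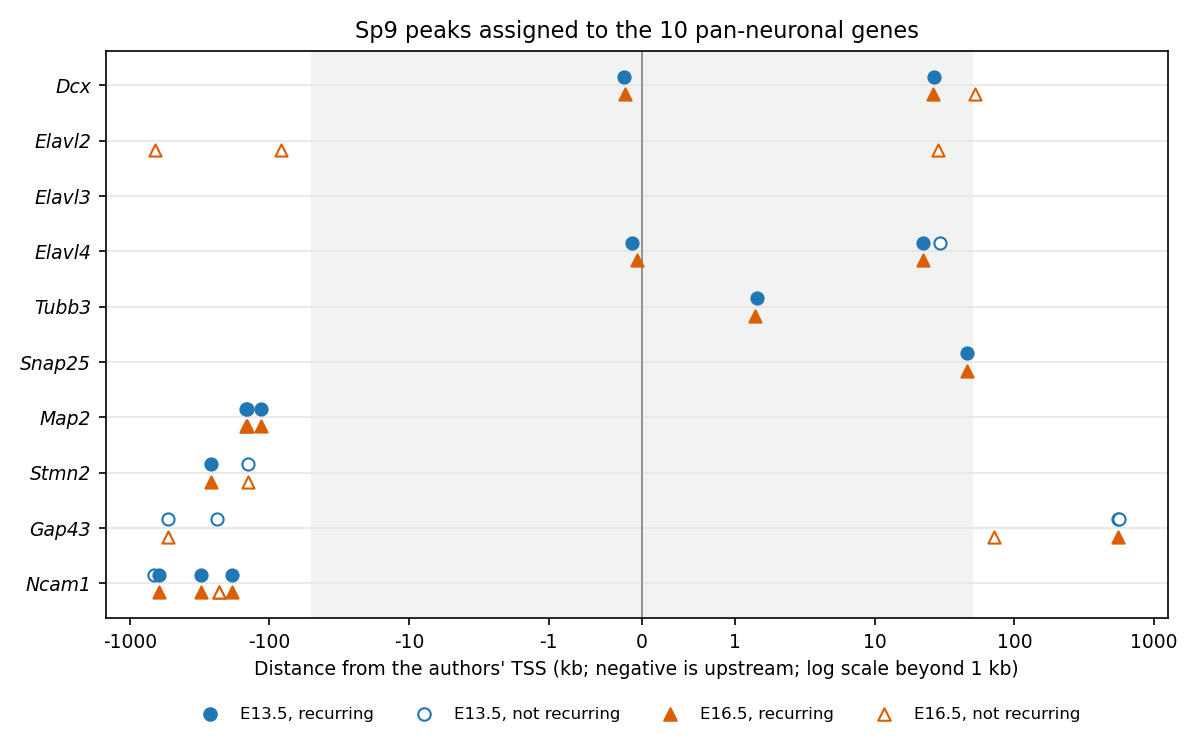
Every Sp9 peak assigned to the 10 genes, by signed distance from the authors' TSS in kb (x axis, logarithmic beyond 1 kb), with circles for E13.5 and triangles for E16.5. Filled symbols have a peak of the same gene within 200 bp in the other list, and the grey band covers 50 kb on either side. Dcx and Elavl4 are the genes with symbols within 1 kb of 0, and the Tubb3 symbols lie just beyond 1 kb. Elavl3 has no symbol, and some neighbouring symbols overlap (for example Gap43 at 553820 and 564688 bp).

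A peak was called recurring when the same gene had a peak in the other list at a TSS distance no more than 200 bp larger or smaller. Of the 20 E13.5 peaks 14 recurred, and of the 23 E16.5 peaks 14. In the whole lists 58.1% of gene-peak assignments at E13.5 and 59.3% at E16.5 recurred, so the share among the 10 genes (70.0% and 60.9%) was near the background at E16.5 and somewhat higher at E13.5, on a few peaks. The 14 pairs differed by 0 to 137 bp, with a median of 55 bp, and the median over all 5783 recurring pairs was 37 bp. Peaks in both lists were assigned to 8 of the 10 genes, beside 16.3% of protein-coding genes. All 8 had at least 1 recurring peak, a count for which no background share was computed. A pair of Stmn2 peaks differed by 211 bp, just outside the limit, and a pair of Gap43 peaks by 398 bp. The widest pair inside the limit was that of Dcx at 137 bp. Peaks within 50 kb recurred in 6 of 7 cases at each stage. Beyond 50 kb, 8 of 13 E13.5 peaks and 8 of 16 E16.5 peaks did so. The same pairs are counted at both stages. Recurrence by distance was not computed over all assignments, so this split describes these peaks alone.

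**Figure D2:**
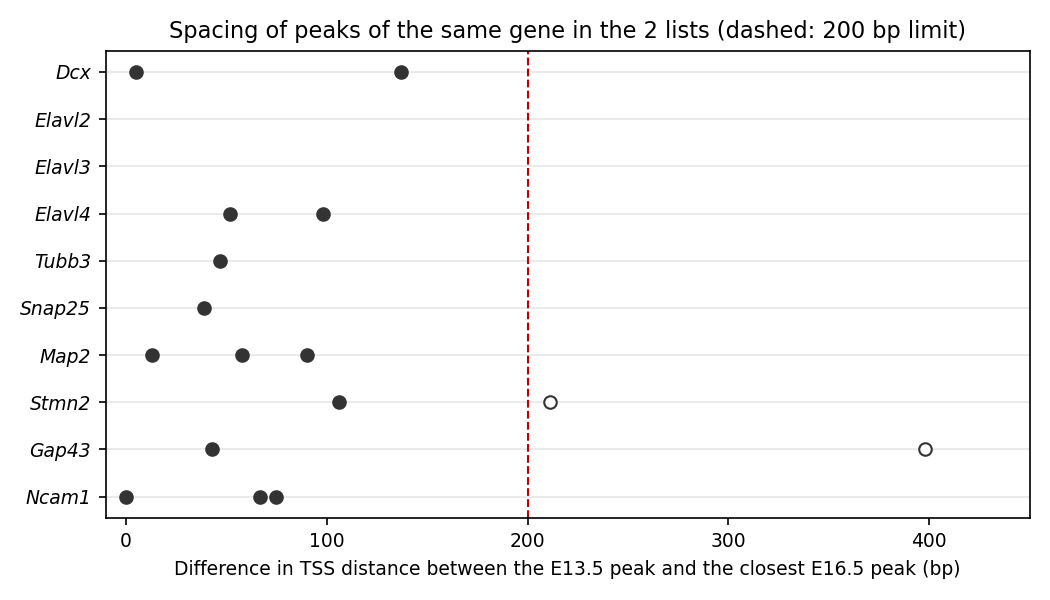
Difference in TSS distance, in bp, between each E13.5 peak and the closest E16.5 peak of the same gene, where it was at most 1 kb. Filled circles lie within the 200 bp limit (dashed line) and open circles outside it: 14 pairs are inside, and those of Stmn2 at 211 bp and Gap43 at 398 bp are outside.

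Among the genes of the microtubule cytoskeleton, Dcx carried a promoter peak at both stages. It lay 191 bp upstream of the TSS at E13.5 and 186 bp upstream at E16.5, a difference of 5 bp, and was assigned to no other gene. A further Dcx peak lay 26379 bp downstream at E13.5 and 26242 bp downstream at E16.5. The E16.5 list added one 51845 bp downstream of the Dcx TSS. That peak was almost midway between Dcx and Capn6, a calpain-family gene, from whose TSS it lay 53865 bp. The pattern at Dcx was thus a promoter site and a downstream site shared by both stages, with a more distant site listed at E16.5.

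Tubb3 had a single peak, just past its start. At E13.5 it lay 1431 bp downstream of the TSS and at E16.5 1384 bp downstream. The same peak was assigned to the neighbouring gene Def8, 30131 and 30178 bp upstream of its TSS, so it was much nearer to Tubb3. It fell outside the 1 kb limit for a promoter peak and inside one of 2.5 kb.

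Map2 had the same 3 peaks in both lists. At E13.5 they lay 146599, 145446 and 114563 bp upstream of the authors' TSS. At E16.5 they lay 146541, 145536 and 114576 bp upstream, within 13 to 90 bp of the E13.5 positions. All were also assigned to Crygf, a lens crystallin gene, in the E13.5 list at 248598, 249751 and 280634 bp downstream of the Crygf TSS.

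The distance of these peaks from Map2 depended on the start site used. A peak assigned to a pair of flanking genes gives the distance between their starts, which is the same for every peak they share. The lists thus placed the authors' Map2 and Crygf starts 395197 bp apart. In the RefSeq promoter table (GRCm38.p6, another build than the lists') the single starts of Map2 and Crygf are 248807 bp apart. If Crygf has the same start in both sources, the authors' Map2 start lies 146390 bp downstream of the RefSeq start. Measured through Crygf, the E13.5 peaks then lay 209 bp upstream, 944 bp downstream and 31827 bp downstream of the RefSeq start of Map2. The E16.5 peaks lay 151 bp upstream, 854 bp downstream and 31814 bp downstream. On this reading a pair of Map2 peaks at each stage fell within 1 kb of a Map2 start. Whether the spacing of these genes differs between the builds was not tested.

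Stmn2 had only distant peaks. They lay 263460 and 141607 bp upstream of the TSS at E13.5, and 263354 and 141818 bp upstream at E16.5. The farther pair recurred and the nearer pair missed the limit by 11 bp. Both were nearer to Stmn2 than to Il7, a cytokine gene 632345 and 754198 bp away at E13.5. The authors split these peaks into lettered entries of equal distance, 5 in the E13.5 list and 3 in the E16.5 list, and each peak was counted here as 1.

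The 3 neuronal Hu genes differed from one another. Elavl4 (HuD) had a promoter peak at both stages, 103 bp upstream of the TSS at E13.5 and 51 bp upstream at E16.5, assigned to no other gene. Elavl4 also had a peak 22147 bp downstream at E13.5 that recurred at 22245 bp. The E13.5 list held a further one, 29344 bp downstream, which did not recur. The 2 downstream Elavl4 sites were shared with Dmrta2, a doublesex-type transcription factor gene, whose TSS was 286689 and 279492 bp away.

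Elavl2 (HuB) had 3 peaks, all in the E16.5 list. They lay 655595 and 82336 bp upstream and 28191 bp downstream of the authors' TSS. The farthest was nearer to Izumo3, a sperm-related gene, at 91642 bp. A peak within 50 kb at E16.5 without one at E13.5 was found for 7.26% of protein-coding genes, and the opposite for 3.02%. Elavl3 (HuC), the third neuronal Hu gene, was in neither list.

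The Elavl2 peak 28191 bp downstream also moved close to a start when RefSeq starts were considered. Elavl2 has 6 RefSeq starts. The first is 747237 bp from the start of Izumo3, exactly as in the lists, so it is the one the authors used under the same reading. The 3 innermost starts of Elavl2 lie 27915, 27929 and 27944 bp downstream of the first. The E16.5 peak was therefore 276, 262 and 247 bp downstream of them, that is, within 1 kb of an internal start of Elavl2.

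For Dcx and Elavl4 one RefSeq start was close to the authors' start. The Dcx to Capn6 distance in the lists, 105710 bp, was within 2 bp of that to the second of 2 RefSeq starts of Dcx. From this start the Dcx promoter peaks lay 189 bp upstream at E13.5 and 184 bp upstream at E16.5, and from the first start 94 and 89 bp upstream. The Elavl4 to Dmrta2 distance, 308836 bp, was within 27 bp of that to the fourth of 4 RefSeq starts of Elavl4. From that start the Elavl4 promoter peaks lay 130 and 78 bp upstream. From the 2 starts next to it they lay 547 to 615 bp downstream, and from the first, outermost start 64947 bp downstream at E13.5 and 64999 bp downstream at E16.5, far outside a 1 kb window.

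Only 4 of the 10 genes (Dcx, Elavl2, Elavl4 and Map2) could be placed in this way, which was chosen after the data were seen. Counting RefSeq starts as well as the authors', 3 of the 10 genes carried a promoter peak at E13.5 (Dcx, Elavl4 and Map2) and 4 at E16.5 (these and Elavl2). For comparison, 2054 protein-coding genes shared a peak with a gene of 1 RefSeq start and were placed too. The authors' start was within 200 bp of a RefSeq start for 74.2% of them, over 1 kb from every RefSeq start for 11.9%, and over 100 kb from every one for 2.43%, or 50 genes including Map2. Among these 2054 genes the same change moved the share with a promoter peak from 12.5% to 14.3% at E13.5 and from 23.2% to 25.9% at E16.5. These are placed genes only, each with an assigned peak. The counts of 3 and 4 are out of all 10 genes, of which only 4 were placed, so the sets are unlike. Of peaks over 1 kb from the authors' TSS of a placed gene, 1.28% at E13.5 and 2.41% at E16.5 came within 1 kb of a RefSeq start of that gene.

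**Figure D3:**
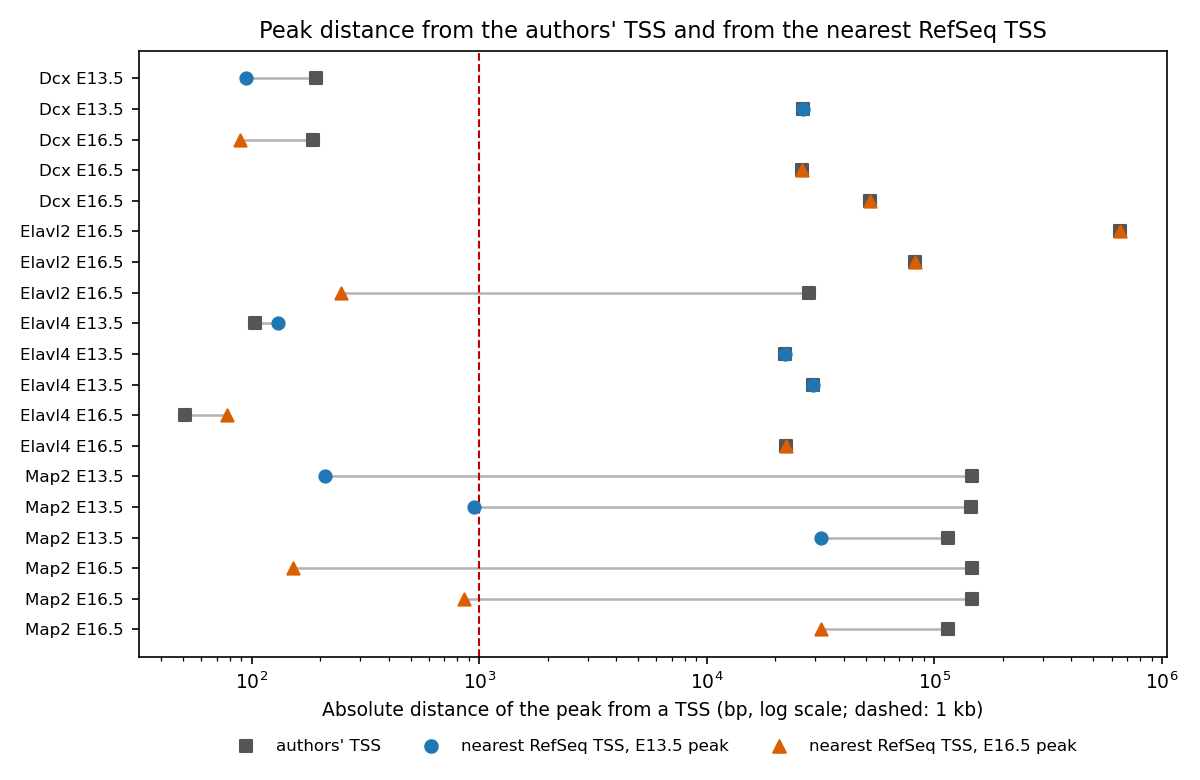
Absolute distance in bp (logarithmic axis) of each peak of the 4 placed genes from the authors' TSS (grey squares) and from the nearest RefSeq TSS of the same gene (circles, E13.5; triangles, E16.5), joined by a line. The Map2 peaks near 146 kb and the Elavl2 peak at 28191 bp cross the 1 kb line (dashed), while Dcx and Elavl4 peaks stay on the same side of it.

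The sequences upstream of 1 RefSeq start of each of these genes are shown because they differ in base composition and in SP/KLF-type motifs. For Dcx and Elavl4 the start closest to the authors' start is used, and for Map2 and Elavl2 the one nearest to a peak. Each is the 250 bases before the start (GRCm38.p6), 5′ to 3′ on the gene's strand. Capitals mark 3 kinds of motif on either strand. The GC box core is GGGCGG, which reads CCGCCC on the opposite strand. The CACC box core is CCACCC, which reads GGGTGG there. The homeodomain core is TAATTA, the same on both strands. The intervals are chr1:66175079-66175328 (+ strand) for Map2, chrX:143933125-143933374 (- strand) for the second start of Dcx, chr4:110286835-110287084 (- strand) for the fourth start of Elavl4 and chr4:91372041-91372290 (- strand) for the innermost start of Elavl2.
Map2: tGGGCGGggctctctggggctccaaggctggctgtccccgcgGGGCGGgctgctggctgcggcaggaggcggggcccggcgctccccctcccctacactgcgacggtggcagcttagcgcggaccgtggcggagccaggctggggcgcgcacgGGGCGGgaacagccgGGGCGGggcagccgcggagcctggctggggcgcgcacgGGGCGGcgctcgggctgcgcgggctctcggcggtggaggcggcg
Dcx: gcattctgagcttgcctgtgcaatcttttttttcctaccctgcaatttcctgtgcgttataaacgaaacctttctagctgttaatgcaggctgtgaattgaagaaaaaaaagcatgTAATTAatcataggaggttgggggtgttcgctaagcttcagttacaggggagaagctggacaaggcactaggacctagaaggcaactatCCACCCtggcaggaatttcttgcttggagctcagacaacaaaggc
Elavl4: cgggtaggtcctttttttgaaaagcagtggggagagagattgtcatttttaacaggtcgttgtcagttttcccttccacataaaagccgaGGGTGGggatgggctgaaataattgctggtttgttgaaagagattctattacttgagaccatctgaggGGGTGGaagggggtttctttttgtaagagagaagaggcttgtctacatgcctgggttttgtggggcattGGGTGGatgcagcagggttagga
Elavl2: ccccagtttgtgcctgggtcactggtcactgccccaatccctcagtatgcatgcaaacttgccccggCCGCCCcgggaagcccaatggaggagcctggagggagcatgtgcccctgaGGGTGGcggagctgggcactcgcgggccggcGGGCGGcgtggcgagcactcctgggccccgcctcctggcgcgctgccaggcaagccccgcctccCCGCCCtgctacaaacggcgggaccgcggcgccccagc

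The motifs were searched in the 300 bases from 250 before to 50 after each start, on both strands. The GGGCGG core was in 35.7% of all 32851 promoters of the table, CCACCC in 31.5% and TAATTA in 5.29%. Map2 had 5 GGGCGG matches, all in the sequence printed, at a GC content of 81.2% against a median of 52.4% over all promoters. The innermost start of Elavl2 had 4 GGGCGG matches, 3 of them printed, 1 CCACCC match, and 73.2% GC. The first Elavl2 start, the one read as the authors' own, had 0 GGGCGG matches, 2 CCACCC matches and 55.6% GC. Over the 6 Elavl2 starts GC content ranged from 54.4% to 73.2%, the innermost being the highest. Neither this Dcx start nor this Elavl4 start had a GGGCGG match. The second Dcx start had 2 CCACCC matches, 1 of them printed, and a TAATTA match 134 bp before the start, at 44.8% GC. The first Dcx start, which is nearer to the promoter peaks, had 0 CCACCC matches, the same TAATTA 39 bp before it, and 41.6% GC. The fourth Elavl4 start had 3 CCACCC matches, 160, 92 and 23 bp before the start, at 46.8% GC. The Dcx and Elavl4 promoter peaks thus lay at starts with a GC content below the median. The Map2 start and the innermost Elavl2 start, near a peak only if the placement through flanking genes holds, were GC-rich. The Elavl2 peak, 247 bp downstream of its innermost start, lay outside the 300 bases searched. A match is a description of the letters and not a binding site.

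A pair of genes without a promoter peak is shown for contrast. Tubb3 (chr8:123411303-123411552, + strand) had its peak 1431 or 1384 bp past the authors' start, whose distance from this RefSeq start was not placed, and Elavl3 (chr9:22052024-22052273, - strand) had no peak at all.
Tubb3: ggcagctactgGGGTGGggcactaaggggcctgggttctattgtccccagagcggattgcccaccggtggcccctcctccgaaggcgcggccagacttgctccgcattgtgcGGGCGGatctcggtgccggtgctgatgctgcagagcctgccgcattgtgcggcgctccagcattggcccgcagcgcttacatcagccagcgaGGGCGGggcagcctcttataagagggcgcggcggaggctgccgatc
Elavl3: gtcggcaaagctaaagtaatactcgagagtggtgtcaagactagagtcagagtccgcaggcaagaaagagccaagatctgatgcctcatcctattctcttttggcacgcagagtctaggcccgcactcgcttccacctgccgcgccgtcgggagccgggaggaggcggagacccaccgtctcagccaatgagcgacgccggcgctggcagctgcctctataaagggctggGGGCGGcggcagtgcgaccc

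Tubb3 had 2 GGGCGG matches and 1 CCACCC match, at 68.0% GC. Elavl3 had 2 GGGCGG matches, 1 of them printed, at 61.6% GC. GGGCGG cores were thus present at the Tubb3 and Elavl3 starts, which had no promoter peak by the authors' TSS. They were absent at the Dcx and Elavl4 starts shown, which had one within 1 kb. They were also present at the Map2 and Elavl2 starts shown, which had one only with RefSeq starts. These few starts were chosen by hand, and whether the core goes with promoter peaks was not tested. Snap25, Stmn2, Gap43 and Ncam1 have no entry in the promoter table.

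Snap25, the synaptic SNARE gene, had a single peak, well downstream of its start. At E13.5 it lay 45693 bp downstream of the TSS and at E16.5 45654 bp downstream, just within the 50 kb window. It was shared with Mkks, a chaperonin-like gene, at 132243 and 132282 bp downstream. Among genes of the lists described next, Syt4, a synaptotagmin gene, had the same number of peaks per distance class at both stages, with a peak 42093 bp downstream at E13.5 and 42001 bp downstream at E16.5. This plain pattern was shared by 314 protein-coding genes other than Snap25.

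Gap43, the growth cone gene, lay in a wide interval between Zbtb20, a zinc finger gene, and Lsamp, a neural adhesion gene. At E13.5 its peaks lay 535300 and 236524 bp upstream and 553820 and 564688 bp downstream. At E16.5 they lay 534902 bp upstream and 71291 and 553777 bp downstream. Only the peak near 554 kb recurred. It was nearer to Lsamp (253973 bp at E13.5) than to Gap43, and the peak 535300 bp upstream was nearer to Zbtb20 (371333 bp). By nearest TSS, Gap43 kept 1 peak at each stage: the one 236524 bp upstream at E13.5 and the one 71291 bp downstream at E16.5. Neither had a counterpart in the other list.

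Ncam1, the adhesion gene, had the most peaks of the 10 at E16.5, all upstream and all shared with the pseudogene Rpl10-ps3. At E13.5 they lay 671076, 621252, 309802 and 186294 bp upstream. At E16.5 they lay 621319, 309802, 229061, 228171 and 186219 bp upstream. The peaks near 621, 310 and 186 kb recurred, the second at exactly the same distance. The neighbouring pair at 229061 and 228171 bp was in the E16.5 list alone. Peaks 671076 and 621252 bp from Ncam1 were nearer to the pseudogene, at 103966 and 153790 bp.

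Of the 20 E13.5 peaks of the 10 genes 5, and of the 23 E16.5 peaks 4, were nearer to the other gene they were assigned to, all of them at Gap43, Ncam1 or Elavl2. Over all gene-peak assignments 41.2% and 38.2% were nearer to another gene. A distant peak is assigned to both flanking genes by the authors' rule, and the lists do not show which of them, if either, it acts on.

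The remaining genes with related roles were taken from 6 lists, 68 genes in all. Within 1 kb, the E13.5 list had a peak at 11 of the 68 (16.2%) and the E16.5 list at 21 (30.9%). Within 50 kb the counts were 22 (32.4%) and 27 (39.7%). Over all protein-coding genes the shares were 4.93% and 9.42% within 1 kb, and 10.8% and 15.1% within 50 kb. The highest counts were those of 10 regulators of neuronal differentiation, with promoter peaks at 6 genes at E13.5 and 8 at E16.5. Promoter peaks in both lists were found at Myt1l, Insm1, St18, Tcf4, Sox4 and Sox11, all genes of transcription factors. At Insm1, a zinc finger factor of newborn neurons, the peak lay 2 bp upstream at E13.5 and 102 bp upstream at E16.5. At Sox11 it lay 404 and 304 bp upstream, and at Sox4 64 and 1 bp upstream.

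Among 10 other growth cone and membrane genes, promoter peaks were found at 2 in the E13.5 list and 6 in the E16.5 list. Dpysl5 and Dpysl3, collapsin response mediator genes, had one at both stages. The Dpysl5 peak lay 111 bp upstream at E13.5 and 201 bp upstream at E16.5. The Dpysl3 peaks lay 93 bp upstream at E13.5 and 67 bp downstream at E16.5. Gap43 itself, of the same cellular compartment, had no peak within 50 kb at either stage.

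Among 16 other cytoskeletal genes, the E13.5 list had promoter peaks at 2 and the E16.5 list at 4. Tuba1a, the main alpha-tubulin of young neurons, had peaks 41 bp upstream at E13.5 and 15 bp upstream at E16.5. Tubb2b, a beta-tubulin of migrating neurons, had peaks 1000 bp upstream at E13.5, on the limit itself, and 862 bp upstream at E16.5. Of 10 other RNA-binding protein genes, 1 carried a promoter peak in the E13.5 list and 2 in the E16.5 list. Rbfox2, a splicing factor gene, had it in both lists, 296 bp downstream at E13.5 and 275 bp downstream at E16.5. Elavl1, the Hu gene expressed in all tissues, was in neither list.

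The synaptic and adhesion lists had few or no promoter peaks, as did most protein-coding genes (4.93% with one at E13.5 and 9.42% at E16.5). In lists this small the counts below, within 1 kb and within 50 kb (background 10.8% and 15.1%), are close to those shares. Of 12 other synaptic vesicle and SNARE genes, 0 had a promoter peak at either stage, and within 50 kb the E13.5 list had a peak at 1 and the E16.5 list at 2. Of 10 other neural immunoglobulin adhesion genes, the E13.5 list had a promoter peak at 0 and the E16.5 list at 1, and 0 and 2 had one within 50 kb. At any assigned distance 7 and 6 of these 10 adhesion genes had a peak, beside 20.7% and 23.6% of protein-coding genes. Like Ncam1, these adhesion genes had mostly distant peaks. The differences between lists were not tested.

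**Figure D4:**
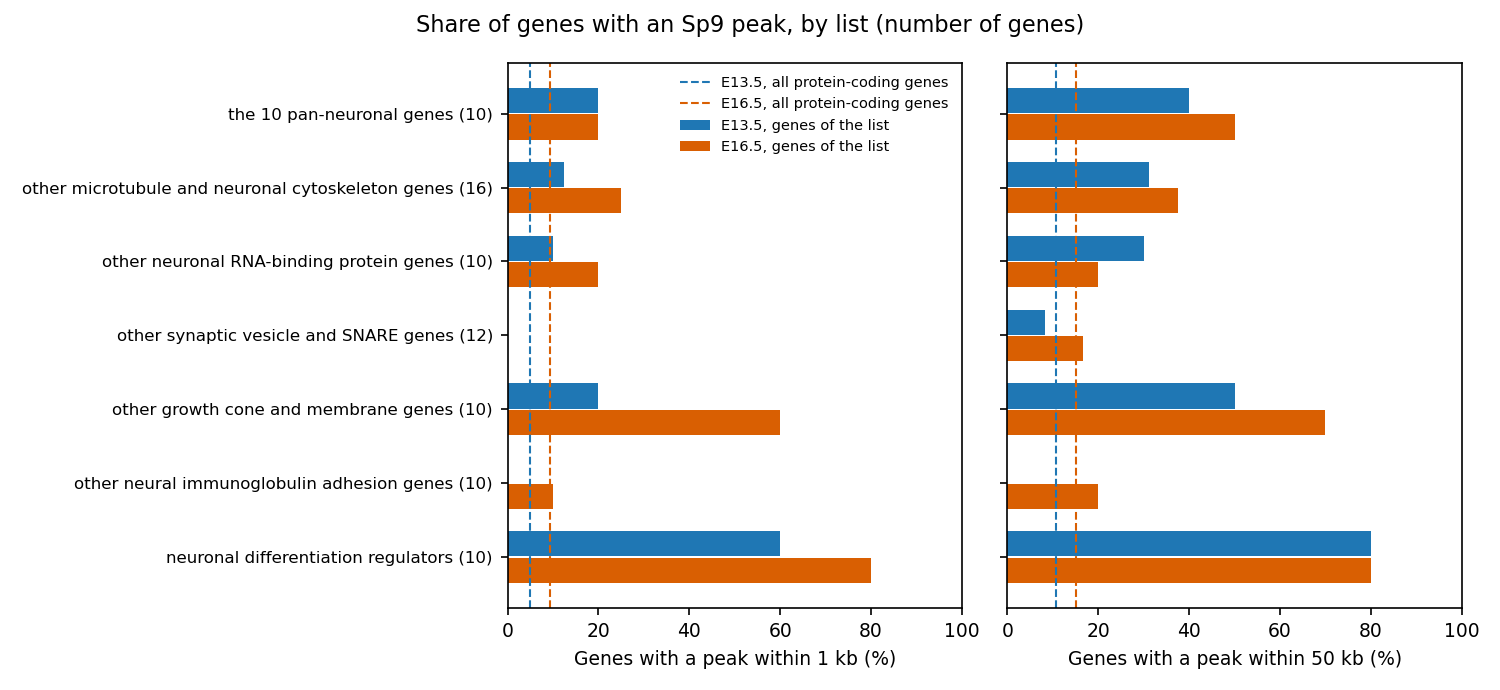
Share of genes with an Sp9 peak within 1 kb (left) and within 50 kb (right) of the authors' TSS, for the 10 pan-neuronal genes and 6 lists of related genes, with blue bars for E13.5 and orange bars for E16.5. Dashed lines give the share of all protein-coding genes (4.93% and 9.42% within 1 kb, 10.8% and 15.1% within 50 kb), and the regulators of differentiation have the longest bars.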

How the data were processed

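The deposited values are text, not a measured unit. Each row names a gene and the numbered peaks assigned to it with their signed TSS distances, on mm9 per the file headers. The authors' gene domains reached from 5000 bp upstream to 1000 bp downstream of a TSS and could extend by 1000000 bp. The submitters' processing notes name BWA 0.6.2 and MACS2 2.1.0 without settings. Input libraries were not analysed here. Lettered entries of a peak were counted as 1 peak, and for names with 2 rows the nearer distance was kept. Gene names were matched to a RefSeq table (GRCm38.p6): 4417 of 4826 names by symbol and 281 by synonym at E13.5, and 5004 of 5463 and 326 at E16.5. Promoter sequences are from RefSeq, where 6 of the 10 genes have 15 entries.

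The 10 genes and the lists were chosen with earlier results of these data known. Named genes were the 10 with every peak, any gene sharing a peak with them, list genes with a promoter peak at both stages, and list genes with the same number of peaks per distance class as one of the 10. Elavl1 and the contrast promoters were chosen after their values were seen. No test was run, since each stage had 1 library. The procedures were tested on simulated data with 1 start per gene. Placement was scored there only from flanking genes whose start was unmoved, so placement across builds was not tested. Alternatives were other windows, other distance limits for recurrence, nearest TSS, lettered entries and RefSeq starts. Python 3.11.15 and matplotlib 3.10.9 were used.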

Additional observations from a re-analysis of the deposited data

How the results depend on the processing

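Against 4 and 5 genes with a peak within 50 kb at E13.5 and E16.5, a window of 10 kb gave 3 at each stage, any assigned distance gave 8 and 9, and a window from 5 kb upstream to 1 kb downstream gave 2 and 2. A limit of 100 kb (4 and 6), nearest TSS (4 and 5) and RefSeq starts (5 and 6, added after seeing the data) stayed within 1.5 times. The 10 kb window did so at E13.5 but not at E16.5. The 2 promoter genes per stage were 2 within 500 bp and 3 within 2.5 kb. With RefSeq starts they were 3 at E13.5 and 4 at E16.5, through Map2 and Elavl2. Of these windows, shares of all protein-coding genes were computed only for 1 kb, 50 kb and any assigned distance (20.7% and 23.6% for the last). The counts in the other windows have no background beside them. Recurring peaks numbered 14, and 12, 16 and 16 with limits of 100 bp, 500 bp and 1 kb. Peaks numbered 20 and 23, against 23 and 24 by lettered entries and 15 and 19 by nearest TSS. The lists give neither depth nor peak height, so whether a peak missing at 1 stage was weaker or absent cannot be told apart. No paired analysis was possible because each group has 1 library.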

Other observations

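The number of peaks per distance class at both stages was the same for Dcx and 1 other protein-coding gene, and for Gap43 and 5 others. No other gene had the pattern of Elavl4, Elavl2 or Ncam1. The pattern of Map2 was shared by 26 others, that of Stmn2 by 113 and that of Tubb3 by 73.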
